A study of Homo sapiens with 12 samples.

Results

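Kinesins are motor proteins that use ATP to move along microtubules or to take microtubules apart. The genes described here are those whose symbol is KIF followed by a digit. They make up 42 of the 19775 genes measured, with 86 of the 41091 probe sets that carry 1 gene symbol. Of the 42, 38 are kinesin genes with 80 probe sets, and 4 are antisense RNAs that bear the symbol of a kinesin (KIF1C-AS1, KIF9-AS1, KIF23-AS1 and KIF25-AS1). Where a gene had several probe sets, the one with the highest mean log2 level over the 12 arrays stands for it, so levels are given as a description and never set between genes. The family was taken up with earlier results of these data known, and its role groups are described by counts and medians beside those of all genes, with no test of a group as a whole.

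RNA was measured on Affymetrix arrays in 4 groups of 3: BxPC-3 cells given PMA, BxPC-3 cells left untreated, AsPC-1 cells given PMA and AsPC-1 cells left untreated. PMA is a phorbol ester that activates protein kinase C; it was carried in DMSO and given at 1 µM for 4 h, and all cells had spent the night before in medium with 2.5% serum. The sources used here do not say what vehicle, if any, the untreated cells received. BxPC-3 is an established line from a primary pancreatic tumour, AsPC-1 an established line from ascites, and each stands for 1 tumour only. Replicates 1, 2 and 3 came from cell passages 7, 9 and 11 of BxPC-3 and from passages 8, 10 and 12 of AsPC-1, and treated and untreated arrays of 1 number share a passage. The study asked how PMA, which its authors use as an inducer of invasion, changes expression in each line and how the lines differ under it.

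The arrays shared a scale, with a trimmed mean signal of 100.014 to 100.018. The 5 epithelial markers KRT8, KRT18, KRT19, EPCAM and CDH1 lay between 473 and 11090 on every array, and the leukocyte and endothelial markers at 64.1 or below. Of 5 fibroblast markers, LUM was at 1261 to 3396 on the AsPC-1 arrays and the other 4 were dim in both lines. The ratio of 3′ to 5′ signal for ACTB, a measure of RNA integrity and labelling, was 1.84, 1.99 and 2.02 on the BxPC-3 PMA arrays and 2.56, 2.95 and 4.14 on the untreated BxPC-3 arrays. In AsPC-1 it was 2.12, 2.32 and 1.79 after PMA and 2.22, 2.27 and 2.24 without it. The AsPC-1 arrays of passage 8, treated and untreated, correlated better with each other (0.964) than with their own groups. The mean correlation with its group was 0.921 for AsPC-1 PMA replicate 1, the lowest of the 12 arrays. For the untreated array of passage 8 it was 0.95, against 0.96 and 0.962 for the other untreated AsPC-1 arrays.

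The kinesins fall into groups by their work. Mitotic kinesins build the spindle, align and separate chromosomes and complete cell division. Their transcripts are known to peak late in the cell cycle, so their level in a culture follows how many cells are close to division. Transport kinesins haul vesicles, organelles and protein complexes along microtubules in cells at all stages. In RNA from a whole culture, fewer cells that express a gene and less of its RNA per cell cannot be told apart. The lists used here hold 12 mitotic, 15 transport and 11 other kinesins. The last is a mixed set of all remaining members, many of them ciliary, regulatory or little studied. KIF2A is in that mixed set, though KIF2B and KIF2C are on the mitotic list. A gene was tested if its signal passed the 40th percentile of the array (8.18 to 10.2) on at least 3 arrays. That left 32 of the 38 kinesins: 11 mitotic, 13 transport and 8 other. KIF2B, KIF17, KIF21B, KIF7, KIF26A and KIF27 were not tested, with signals of 0.542 to 12.6.

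The promoters of many late cell cycle genes hold the cell cycle genes homology region, or CHR, an element that the MuvB and DREAM complexes bind, often close to a CCAAT box, the site of NF-Y. Sequences from 250 bases before to 50 bases after a start site (RefSeq, GRCh38.p14) were searched on both strands for TTTGAA or TTTAAA (CHR) and for CCAAT. All 12 mitotic kinesins, 12 of the 15 transport kinesins and 8 of the 11 other kinesins matched an entry. The CHR letters were found for 10 of 12 mitotic, 2 of 12 transport and 0 of 8 other kinesins, and for 27.9% of all 27305 genes. The CCAAT letters were found for 9 of 12 mitotic, 4 of 12 transport and 3 of 8 other kinesins, and for 39.7% of all genes. Both stood in 8 of 12 mitotic, 1 of 12 transport and 0 of 8 other kinesins, against 11.2% of all genes. Counted by promoter, CHR was in 24.0%, CCAAT in 34.6% and both in 9.27% of 35116. All 7 mitotic kinesins that passed the test after PMA in AsPC-1, described below by name, hold the CHR letters in this window. So do KIF14, KIF20A and KIF20B, which were tested and did not pass, while KIF22, which did not pass either, lacks them. The letters therefore do not set apart the genes that passed. The 100 bases before the start site are shown for 6 mitotic kinesins whose CHR lies in them, and for 2 transport kinesins with none there, KIF3B and KIF13A. Letters run 5′ to 3′ along the gene and end at the base before the start, with CHR and CCAAT in capitals. TTCAAA and ATTGG are TTTGAA and CCAAT read from the other strand, and none of the matches shown overlaps another.
KIF11: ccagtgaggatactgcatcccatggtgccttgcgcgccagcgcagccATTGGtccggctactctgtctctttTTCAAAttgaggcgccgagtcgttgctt
KIF15: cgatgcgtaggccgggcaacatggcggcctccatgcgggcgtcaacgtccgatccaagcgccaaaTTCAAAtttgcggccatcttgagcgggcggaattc
KIF18A: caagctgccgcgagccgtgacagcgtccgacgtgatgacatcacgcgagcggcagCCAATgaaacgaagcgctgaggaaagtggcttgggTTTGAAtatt
KIF20A: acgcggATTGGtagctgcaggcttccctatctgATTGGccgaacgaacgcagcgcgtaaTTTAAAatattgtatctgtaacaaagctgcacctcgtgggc
KIF23: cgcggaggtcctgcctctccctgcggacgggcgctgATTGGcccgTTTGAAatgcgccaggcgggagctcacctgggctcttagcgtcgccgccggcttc
KIF4A: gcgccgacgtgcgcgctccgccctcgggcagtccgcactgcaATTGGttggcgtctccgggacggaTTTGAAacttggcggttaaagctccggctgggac
KIF3B: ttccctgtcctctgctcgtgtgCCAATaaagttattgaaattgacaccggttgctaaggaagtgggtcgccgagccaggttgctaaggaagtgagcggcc
KIF13A: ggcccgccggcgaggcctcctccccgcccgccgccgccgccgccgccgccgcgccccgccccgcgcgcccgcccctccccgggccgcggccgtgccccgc
KIF11 is at chr10:92593030-92593129 on the plus strand, KIF15 at chr3:44761694-44761793 (plus) and KIF18A at chr11:28108157-28108256 (minus). KIF20A is at chr5:138179012-138179111 (plus), KIF23 at chr15:69414249-69414348 (plus) and KIF4A at chrX:70290004-70290103 (plus). KIF3B is at chr20:32277551-32277650 (plus) and KIF13A at chr6:17987636-17987735 (minus). In the 6 mitotic promoters the CHR begins between 55 and 10 bases before the start, and in 5 of them a CCAAT lies upstream of it. KIF15 has no CCAAT in the window. A match is a run of letters and not a measured site, and the lack of one says only that these letters are not in this window.

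Mitotic kinesins were lower after PMA, 1 of 11 past the threshold in BxPC-3 and 7 of 11 in AsPC-1, and no transport or other kinesin passed it in either line over all 12 arrays. Without AsPC-1 PMA replicate 1, 5 of 11 mitotic and 4 of 13 transport kinesins passed in BxPC-3, where 14.9% of all genes did, and 10 of 11 and 4 of 13 in AsPC-1, where 19.5% did. The mitotic log2 differences ran from -1.02 to -0.14 in BxPC-3, with a median of -0.44, and from -1.90 to -0.53 in AsPC-1, with a median of -1.28. All 11 were negative in both lines on the probe set that stands for the gene. A second probe set of KIF14 measured 296, 247 and 325 after PMA and 213, 211 and 183 without it in BxPC-3, a log2 difference of 0.51 with no overlap, and gave -0.45 in AsPC-1. A dim second probe set of KIF20B gave 0.94 in BxPC-3 and 0.56 in AsPC-1. Over all 16099 genes tested the median was 0.00 in BxPC-3 and -0.10 in AsPC-1. The 13 transport kinesins had a median of -0.33 in BxPC-3 and 0.02 in AsPC-1, and the 8 other kinesins -0.03 and -0.16 in the same order. In BxPC-3, 5.82% of all genes passed the test in either direction and 3.3% were lower; in AsPC-1, 1.96% passed and 0.721% were lower. A gene counts as past the threshold at a Benjamini-Hochberg adjusted p under 0.05 over all genes in limma's fit.

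**Figure D1:**
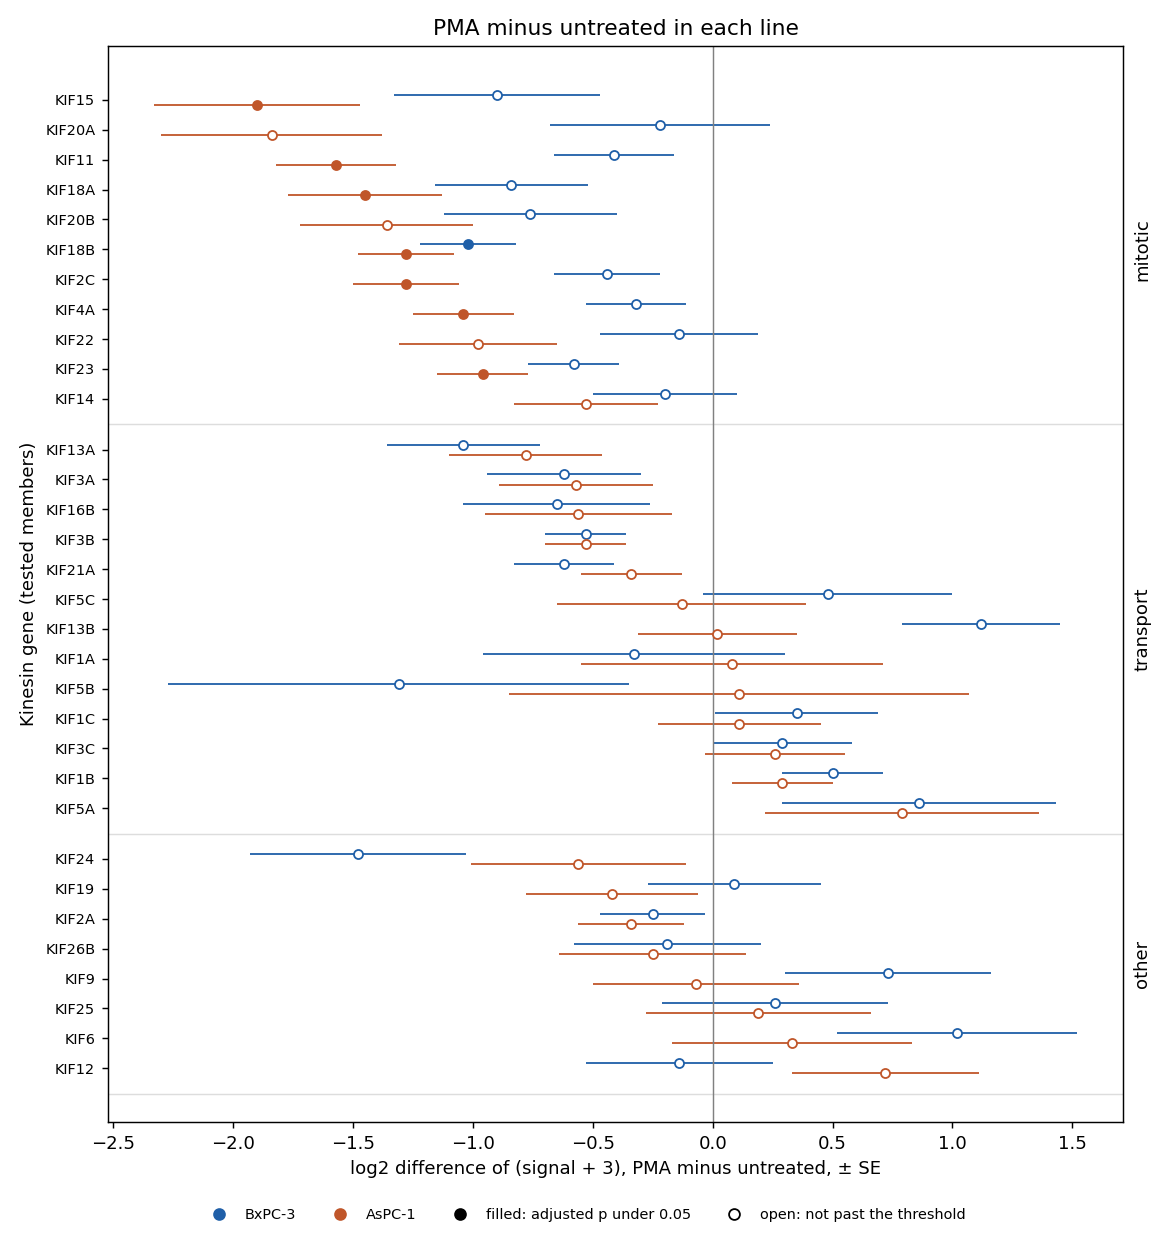
Difference of log2(signal + 3), PMA minus untreated, with its standard error from the fit, for the 32 tested kinesins in BxPC-3 (blue) and AsPC-1 (orange), grouped by role. Filled points have an adjusted p under 0.05. All 11 mitotic kinesins lie left of 0 in both lines, and the filled points are KIF18B in BxPC-3 and 7 mitotic kinesins in AsPC-1.

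The motors that build the spindle were among those that fell in AsPC-1. KIF11, also known as Eg5, pushes the spindle poles apart. Its signal was 417, 305 and 359 after PMA and 488, 511 and 431 without it in BxPC-3, a log2 difference of -0.41 ± 0.25 (SE) with an adjusted p of 0.396. In AsPC-1 it was 256, 134 and 135 after PMA and 647, 448 and 435 without it. The groups did not overlap in either line, and the AsPC-1 difference was -1.57 ± 0.25, or 2.97-fold lower, with an adjusted p of 0.00805. KIF15 works beside KIF11 in keeping the spindle bipolar. It measured 69.8, 72.5 and 89.1 after PMA and 143, 152 and 143 without it in BxPC-3. The AsPC-1 arrays gave 81.4, 21.9 and 16.3 after PMA and 181, 105 and 104 without it. KIF15 fell by 1.90 ± 0.43 on the log2 scale in AsPC-1 (3.74-fold lower, adjusted p 0.0417). In BxPC-3 its difference of -0.90 ± 0.43 did not pass (adjusted p 0.254), although the 2 groups did not overlap.

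Among motors that set microtubule length and align chromosomes, KIF18B passed the test in both lines. KIF18B trims the plus ends of spindle microtubules. Its signal was 147, 167 and 164 after PMA and 392, 316 and 279 without it in BxPC-3, a fall of 1.02 ± 0.20 on the log2 scale (2.03-fold lower, adjusted p 0.0108). In AsPC-1 it was 135, 101 and 90.9 after PMA and 300.0, 249 and 251 without it, a fall of 1.28 ± 0.20 (2.43-fold lower, adjusted p 0.00775). Each PMA array was below each untreated array of its line. The closely related KIF18A damps the swings of chromosomes on the spindle. It measured 126, 94.6 and 122 after PMA and 203, 221 and 192 without it in BxPC-3 (-0.84 ± 0.32, adjusted p 0.149). AsPC-1 arrays gave 162, 60.2 and 81.0 after PMA and 370, 204 and 228 without it, which was 2.73-fold lower (-1.45 ± 0.32, adjusted p 0.0383). KIF2C, or MCAK, takes microtubules apart at centromeres and so corrects faulty attachments. Its signals were 612, 413 and 618 after PMA and 737, 789 and 671 without it in BxPC-3 (-0.44 ± 0.22, adjusted p 0.277). In AsPC-1 they were 234, 159 and 167 after PMA and 561, 378 and 433 without it (-1.28 ± 0.22, 2.43-fold lower, adjusted p 0.0109). The PMA and untreated groups of KIF18A and KIF2C did not overlap in either line. A second KIF2C probe set gave -0.43 in BxPC-3 and -1.07 in AsPC-1.

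KIF4A and KIF23, motors of the central spindle and of cytokinesis, fell in AsPC-1, and KIF20A missed the threshold. KIF4A is a chromosome-bound motor that with PRC1 shapes the central spindle. It measured 408, 341 and 384 after PMA and 480, 503 and 433 without it in BxPC-3 (-0.32 ± 0.21, adjusted p 0.432). Signals in AsPC-1 were 342, 306 and 272 after PMA and 911, 531 and 515 without it, 2.05-fold lower (-1.04 ± 0.21, adjusted p 0.0285). KIF23, or MKLP1, is the motor of centralspindlin, which sets the place of the cleavage furrow. Its signals were 278, 231 and 263 after PMA and 458, 361 and 341 without it in BxPC-3 (-0.58 ± 0.19, adjusted p 0.089). In AsPC-1 they were 99.0, 104 and 105 after PMA and 238, 183 and 189 without it, 1.94-fold lower (-0.96 ± 0.19, adjusted p 0.0227). That AsPC-1 call was lost with the mean of the KIF23 probe sets (-0.79, adjusted p 0.227 in limma's fit) and under quantile normalization. KIF20A, or MKLP2, carries the chromosomal passenger complex to the central spindle. It measured 195, 161 and 171 after PMA and 247, 210 and 164 without it in BxPC-3, where the groups overlap (-0.22 ± 0.46, adjusted p 0.843). In AsPC-1 it measured 140, 51.9 and 27.7 after PMA and 392, 159 and 171 without it (-1.84 ± 0.46, adjusted p 0.0619). Its AsPC-1 groups did not overlap, but the PMA arrays spread over a wide range, with replicate 1 the highest. The other 3 tested mitotic kinesins, KIF20B, KIF22 and KIF14, did not pass in AsPC-1, at -1.36, -0.98 and -0.53, with adjusted p of 0.0763, 0.156 and 0.402. In BxPC-3 they were at -0.76, -0.14 and -0.20.

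**Figure D2:**
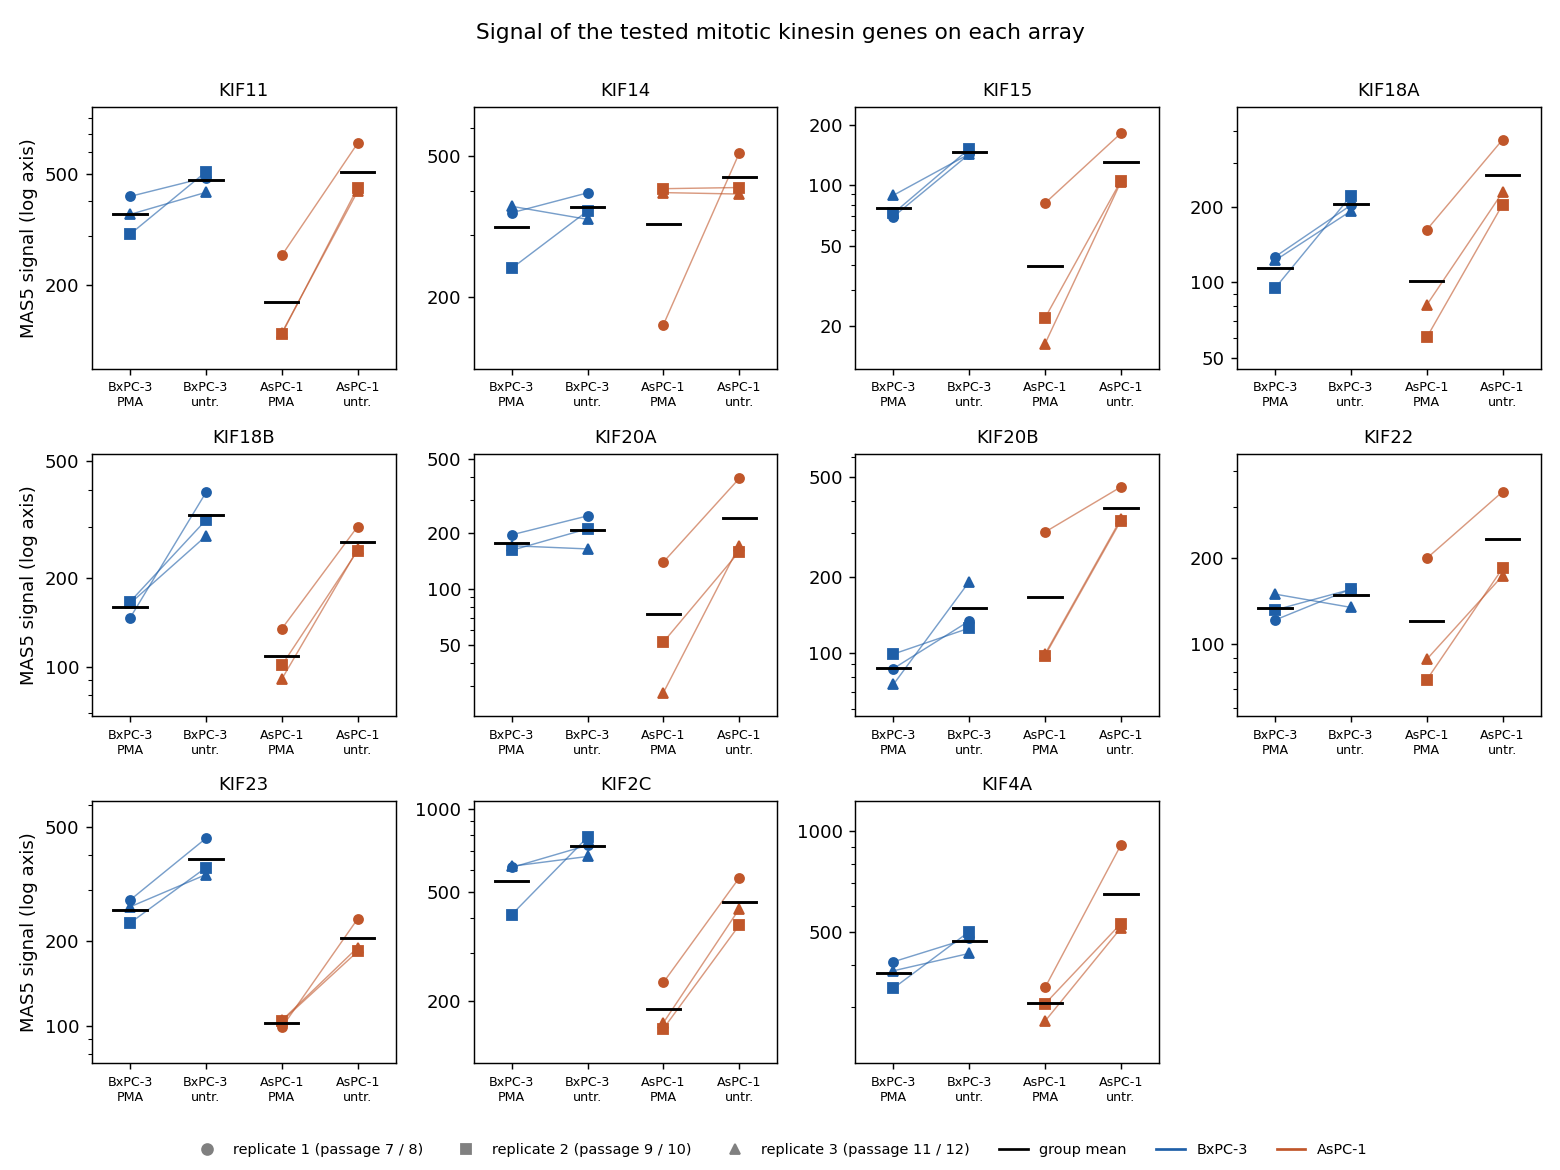
MAS5 signal (log axis, scaled separately for each gene) of the 11 tested mitotic kinesins on the 12 arrays. Lines join the PMA and untreated arrays of 1 passage, and black bars are group means. In AsPC-1 passage 8 (circles) is the highest untreated array for all 11 genes, and KIF14 alone is lower after PMA in that passage and near level in the other 2.

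The mitotic medians were negative in each passage of both lines. The median over the 11 mitotic kinesins, PMA minus untreated within a passage, was -1.24, -1.27 and -1.43 in passages 8, 10 and 12 of AsPC-1, where 11, 11 and 10 genes were negative. In passages 7, 9 and 11 of BxPC-3 it was -0.35, -0.64 and -0.26, with 11, 11 and 8 genes negative. For all genes these medians lay between -0.13 and 0.03. The PMA and untreated groups did not overlap, with PMA lower, for 8 of 11 mitotic kinesins in BxPC-3, against 21.9% of all genes, and for 9 of 11 in AsPC-1, against 8.37%. Among transport kinesins the same held for KIF13A, KIF16B, KIF21A, KIF3A, KIF3B and KIF5B in BxPC-3 and for KIF3B in AsPC-1. An exact test of 3 arrays against 3 cannot go below p = 0.1 for a single gene.

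The calls depend on which arrays set the spread. With cell passage as a block, 10 of 11 mitotic kinesins were lower in AsPC-1 (5.62% of all genes passed), the 3 added being KIF20A (adjusted p 0.00191), KIF20B (0.0193) and KIF22 (0.0198). In BxPC-3 the block gave 6 kinesins in all, with 10.2% of all genes passing: KIF18A (adjusted p 0.0261), KIF18B, KIF13A, KIF21A and KIF5B lower and KIF13B higher. Without AsPC-1 PMA replicate 1, the mitotic calls were KIF15, KIF18A, KIF18B, KIF20B and KIF23 in BxPC-3, where 9.17% of all genes were lower, and all but KIF14 in AsPC-1, where 13.5% were lower. That fit also called KIF13A, KIF3B, KIF21A and KIF24 lower and KIF13B and KIF9 higher in BxPC-3, and KIF13A, KIF3B, KIF3A and KIF16B lower and KIF9 higher in AsPC-1. It keeps the untreated AsPC-1 array of passage 8, the highest of its group for 11 of 11 mitotic kinesins, which enlarges their falls. Without both AsPC-1 arrays of passage 8 the 7 AsPC-1 calls held (21.4% of all genes passed). Those added were KIF20A, KIF20B, KIF22, KIF13A, KIF16B, KIF3A, KIF3B and KIF2A. Without AsPC-1 PMA replicate 2 or replicate 3, KIF18B alone of the kinesins passed in AsPC-1, and leaving out an untreated AsPC-1 array or any BxPC-3 array left 3 to 5 of the 7. Over the 12 fits that left out 1 array, the AsPC-1 calls of KIF15 and KIF18A were each lost in 11 (adjusted p up to 0.191 and 0.182), that of KIF4A in 7, KIF23 in 4, KIF11 and KIF2C in 2 each and KIF18B in 0. Fitted on the 6 AsPC-1 arrays alone, limma called 0 kinesins and 0.0% of all genes, with 10 of 11 mitotic kinesins lower at an unadjusted p under 0.05. Counts at an unadjusted p, here and below, are given without the share of all genes at that cut. They are a description and cannot be read as an excess over all genes. The BxPC-3 call of KIF18B was lost without BxPC-3 PMA replicate 1 and without untreated replicate 1. All 3 BxPC-3 PMA arrays had an ACTB ratio below those of the 3 untreated arrays, and its part in the BxPC-3 differences was not tested.

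No kinesin passed the test of whether PMA acted differently in the 2 lines. The difference of the responses, BxPC-3 minus AsPC-1, was positive for all 11 mitotic kinesins, with a median of 0.72 against 0.07 for all genes. It ran from 0.26 for KIF18B to 1.62 for KIF20A (± 0.65, adjusted p 0.485), and KIF11 had 1.16 ± 0.36 (adjusted p 0.292). At an unadjusted p under 0.05, 5 of 32 kinesins were positive (KIF11, KIF20A, KIF2C, KIF4A and KIF13B) and 0 negative. Of all genes, 0.491% passed at the adjusted threshold. Without AsPC-1 PMA replicate 1, where 4.43% of all genes passed, 4 mitotic kinesins did: KIF11 (1.47 ± 0.26, adjusted p 0.00601), KIF15 (1.65 ± 0.34, 0.016), KIF20A (2.22 ± 0.47, 0.0174) and KIF20B (1.14 ± 0.29, 0.0452). With the passage block, where 0.783% of all genes passed, the 1 kinesin past the threshold was KIF5B (-1.42 ± 0.26, adjusted p 0.0379), whose probe sets disagree as described below.

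Of the transport kinesins, 6 were positive and 7 negative in BxPC-3, and 7 positive and 6 negative in AsPC-1, with no gene past the threshold in limma's fit over all arrays. These counts include the dim KIF1A, KIF5A and KIF5C. In the fit without AsPC-1 PMA replicate 1, 4 of 13 passed in each line: KIF13A, KIF3B and KIF21A lower and KIF13B higher in BxPC-3, and KIF13A, KIF3B, KIF3A and KIF16B lower in AsPC-1. At an unadjusted p under 0.05, 2 were higher (KIF13B and KIF1B) and 3 lower (KIF13A, KIF3B and KIF21A) in BxPC-3, and 0 were higher and 2 lower (KIF13A and KIF3B) in AsPC-1. KIF3B is a subunit of kinesin-2, the motor of transport within cilia. Its signal was 336, 338 and 337 after PMA and 451, 493 and 518 without it in BxPC-3, and 387, 283 and 288 after PMA and 466, 490 and 415 without it in AsPC-1. Its log2 difference was -0.53 ± 0.17 in each line (adjusted p 0.0812 in BxPC-3 and 0.13 in AsPC-1, or 0.00982 and 0.00315 without AsPC-1 PMA replicate 1), and the groups did not overlap in either. A second KIF3B probe set gave -0.54 and -0.47 in the same order. KIF13A carries endosomal cargo such as the mannose 6-phosphate receptor. It measured 190.0, 251 and 174 after PMA and 432, 399 and 426 without it in BxPC-3 (-1.04 ± 0.32, adjusted p 0.0778, 0.0267 with the passage block). In AsPC-1 it measured 481, 173 and 168 after PMA and 456, 411 and 382 without it. The AsPC-1 difference rested on passages 10 and 12: it was -0.78 ± 0.32 over all arrays (adjusted p 0.239) and -1.27 ± 0.17 without PMA replicate 1 (adjusted p 0.000149). The 6 KIF13A probe sets differed in sign, with a range of -2.80 to 0.13 in BxPC-3 and of -0.78 to 0.79 in AsPC-1.

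KIF13B and KIF1B lay higher after PMA in BxPC-3 with no overlap of the groups, short of the adjusted threshold. In BxPC-3 the groups did not overlap, with PMA higher, for 2739 of all 16099 genes. The lack of overlap alone therefore does not set KIF13B or KIF1B apart. KIF13B moves cargo such as the polarity protein DLG1. Its signal was 113, 174 and 158 after PMA and 63.7, 61.9 and 71.7 without it in BxPC-3 (1.12 ± 0.33, adjusted p 0.0631, 0.00915 with the block). In AsPC-1 it was 298, 154 and 192 after PMA and 350, 168 and 144 without it (0.02 ± 0.33, adjusted p 0.988). The groups were apart in BxPC-3 and overlapped in AsPC-1. KIF1B carries mitochondria and synaptic vesicle precursors. It measured 263, 221 and 251 after PMA and 188, 187 and 146 without it in BxPC-3 (0.50 ± 0.21, adjusted p 0.197). AsPC-1 cells had 214, 319 and 262 after PMA and 172, 229 and 246 without it (0.29 ± 0.21, adjusted p 0.545). Its 4 probe sets differed in sign in both lines, with a range of -0.15 to 0.56 in BxPC-3 and of -0.46 to 0.29 in AsPC-1.

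**Figure D3:**
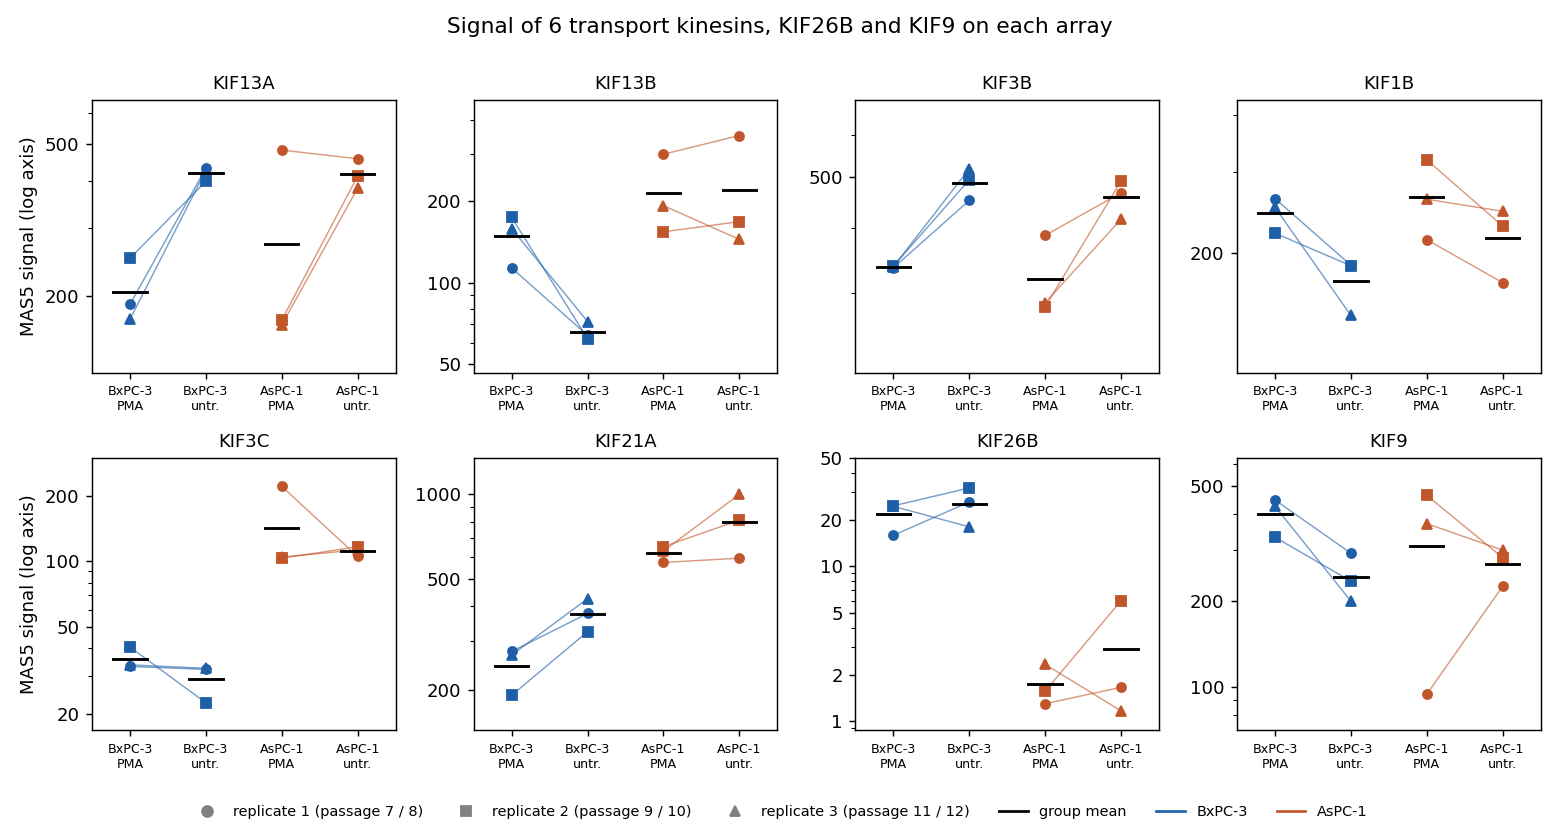
MAS5 signal (log axis, scaled separately for each gene) of 6 transport kinesins, of KIF26B and of KIF9 on each array, drawn as in the plot of mitotic kinesins. KIF13A shows AsPC-1 PMA replicate 1 near the untreated arrays, and KIF3C and KIF26B show the 2 lines apart in both conditions.

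KIF5B, the heavy chain of conventional kinesin that is found in most cells, gave a result that depends on the probe set. The one with the highest mean, which stands for the gene, measured 577, 570.1 and 473 after PMA and 1691, 972 and 1451 without it in BxPC-3. In AsPC-1 it measured 210, 3210 and 3144 after PMA and 250, 2470 and 2733 without it. Both AsPC-1 arrays of passage 8 were thus far below those of passages 10 and 12. Its log2 difference was -1.31 ± 0.96 in BxPC-3 (adjusted p 0.489) and 0.11 ± 0.96 in AsPC-1 (adjusted p 0.973). The probe set with the next highest mean measured 732, 921 and 725 after PMA and 738, 894 and 783 without it in BxPC-3. In AsPC-1 it measured 1417, 1301 and 1424 after PMA and 1047, 1401 and 1347 without it. On this probe set passage 8 was not set apart, and the log2 difference was -0.03 in BxPC-3 and 0.14 in AsPC-1. The third gave 0.35 and -0.07 in the same order. With the passage block the first probe set passed in BxPC-3 (-1.31 ± 0.19, adjusted p 0.00238), a fall that neither of the others shows.

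**Figure D4:**
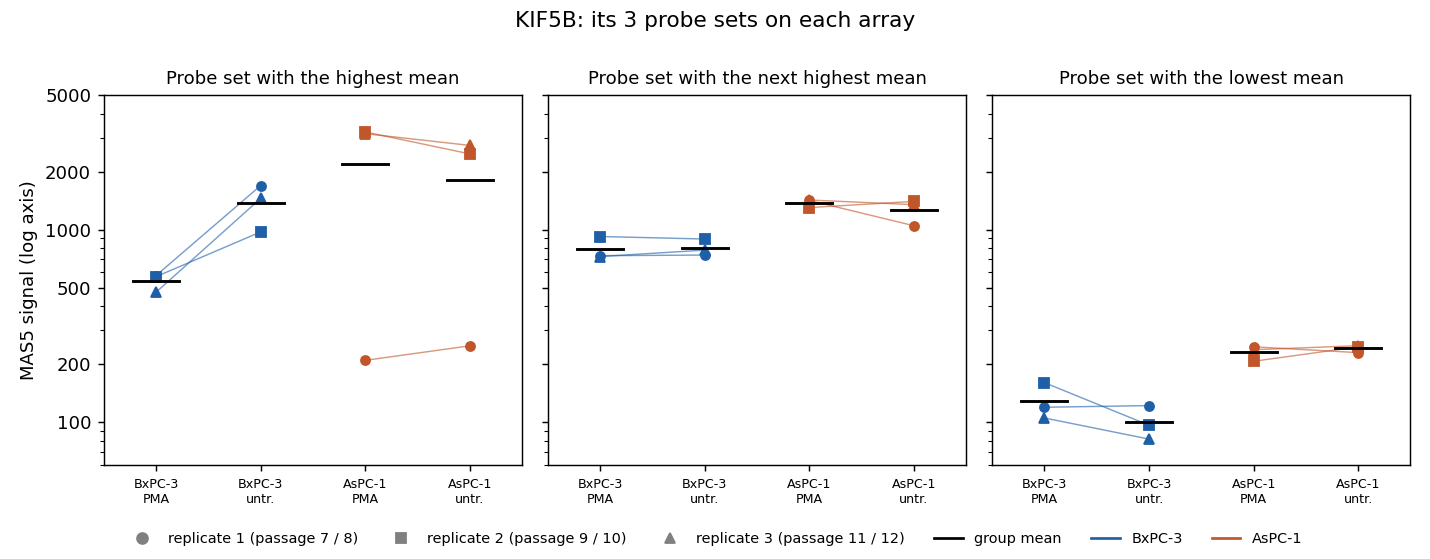
MAS5 signal (log axis, shared) of the 3 KIF5B probe sets on each array, with lines joining PMA and untreated arrays of 1 passage. On the probe set with the highest mean the 2 AsPC-1 arrays of passage 8 lie at 210 and 250 while the other 4 lie at 2470 to 3210, and the other probe sets show no such gap.

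None of the 8 other kinesins tested passed in either line in limma's fit over all arrays. At an unadjusted p under 0.05, 1 was lower in BxPC-3 and 0 in AsPC-1, and 0 were higher in either. That gene was KIF24, a centriolar kinesin that holds back the growth of cilia, at signals of 6.13, 3.03 and 0.628 after PMA and 14.7, 10.5 and 15.2 without it (-1.48 ± 0.45, adjusted p 0.0749). All 3 PMA signals lie below the 40th percentile of their arrays. The log2 differences of the 8 ran from -1.48 to 1.02 in BxPC-3 and from -0.56 to 0.72 in AsPC-1. KIF2A, which the mitotic counts leave out, gave -0.25 and -0.34 in the same order. KIF9-AS1 was the 1 antisense RNA tested, and it gave -0.24 in BxPC-3 (adjusted p 0.826) and -0.31 in AsPC-1 (adjusted p 0.797).

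Between the lines, the kinesins past the threshold are given beside the share of all genes, and the gap between the shares was not tested. With 32 members, a gap of a few genes does not set the family apart. After PMA, 8 of 32 passed (25.0%), 6 higher and 2 lower in BxPC-3 than in AsPC-1, against 33.5% of all genes (18.3% higher, 15.2% lower). Untreated, 7 of 32 passed (21.9%), 3 higher and 4 lower, against 32.4% of all genes (16.8% higher, 15.6% lower). The transport kinesins that passed were lower in BxPC-3. KIF3C, a neuronal kinesin-2 subunit, measured 33.1, 40.5 and 33.7 in BxPC-3 and 220.1, 104 and 105 in AsPC-1 after PMA. Untreated it measured 32.1, 22.6 and 32.4 in BxPC-3 and 105, 117 and 113 in AsPC-1. The lines did not overlap in either condition, at -1.82 ± 0.29 after PMA (adjusted p 0.00024) and -1.85 ± 0.29 untreated (adjusted p 0.000214). A second probe set gave -1.25 and -1.47.

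KIF21A, which restrains microtubule growth at the cell cortex, was also lower in BxPC-3 in both conditions. It measured 275, 192 and 268 in BxPC-3 and 572, 651 and 628 in AsPC-1 after PMA (-1.34 ± 0.21, adjusted p 0.000239). Untreated it measured 376, 324 and 424 in BxPC-3 and 592, 809 and 999 in AsPC-1 (-1.06 ± 0.21, adjusted p 0.00147). KIF13B was lower in untreated BxPC-3 by 1.59 ± 0.33 on the log2 scale (adjusted p 0.00188). After PMA its difference was -0.49 ± 0.33 (adjusted p 0.282). KIF26B, an unusual kinesin known from kidney development, was the kinesin highest in BxPC-3 relative to AsPC-1. It measured 15.8, 24.5 and 24.4 in BxPC-3 and 1.30, 1.56 and 2.33 in AsPC-1 after PMA. Untreated it measured 26.0, 32.0 and 18.0 in BxPC-3 and 1.66, 6.0 and 1.17 in AsPC-1. The log2 differences were 2.36 ± 0.39 after PMA (adjusted p 0.000333) and 2.31 ± 0.39 untreated (adjusted p 0.000403). All AsPC-1 signals lay below the 40th percentile of their arrays, and a second probe set gave -1.30 and -0.43, so the difference rests on 1 dim probe set.

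Among the mitotic kinesins, KIF23 and KIF2C were higher in BxPC-3 in both conditions, though each call has a limit. KIF23 differed by 1.30 ± 0.19 after PMA (adjusted p 0.000107) and 0.91 ± 0.19 untreated (adjusted p 0.00177). A dim second probe set gave -0.29 after PMA and 0.99 untreated, and with the mean of both probe sets the call after PMA was lost (0.50, adjusted p 0.244). KIF2C differed by 1.53 ± 0.22 after PMA (adjusted p 9.97e-05) and 0.69 ± 0.22 untreated (adjusted p 0.0258). The untreated call of KIF2C was lost with the mean of its probe sets (0.58, adjusted p 0.0606) and without untreated replicate 1 or 2 of BxPC-3 or untreated replicate 2 or 3 of AsPC-1 (adjusted p up to 0.108). KIF11, KIF15 and KIF20A were higher in BxPC-3 after PMA, at 1.09 ± 0.25 (adjusted p 0.00434), 1.21 ± 0.43 (0.0441) and 1.52 ± 0.46 (0.0211). The lines overlapped for KIF15, and its call was lost in 10 of 12 fits that left out 1 array, all but those without replicate 1 of either AsPC-1 group (adjusted p up to 0.187). The KIF20A call was lost without PMA replicate 1 or 3 of BxPC-3 or PMA replicate 2 or 3 of AsPC-1 (adjusted p up to 0.096). On the arrays of the comparison alone both missed the threshold (adjusted p 0.123 for KIF15 and 0.0534 for KIF20A). Untreated, these 3 stood at -0.08, 0.21 and -0.11 and did not pass. That change between conditions is the difference of the PMA responses given above, which did not pass for any of them. KIF20B, a motor of late cytokinesis, measured 134, 126 and 192 in BxPC-3 and 456, 336 and 341 in AsPC-1 untreated (-1.32 ± 0.36, adjusted p 0.0123). That call was lost with the mean of its probe sets (-0.65, adjusted p 0.101) and without BxPC-3 untreated replicate 2 (adjusted p 0.0516). After PMA it measured 86.7, 99.0 and 75.0 in BxPC-3 and 302, 97.7 and 99.2 in AsPC-1, where the lines overlap (-0.71 ± 0.36, adjusted p 0.154). The medians over the 11 mitotic kinesins were 0.55 after PMA and -0.11 untreated (0.11 without AsPC-1 untreated replicate 1), and over the 13 transport kinesins -0.29 and -0.30.

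**Figure D5:**
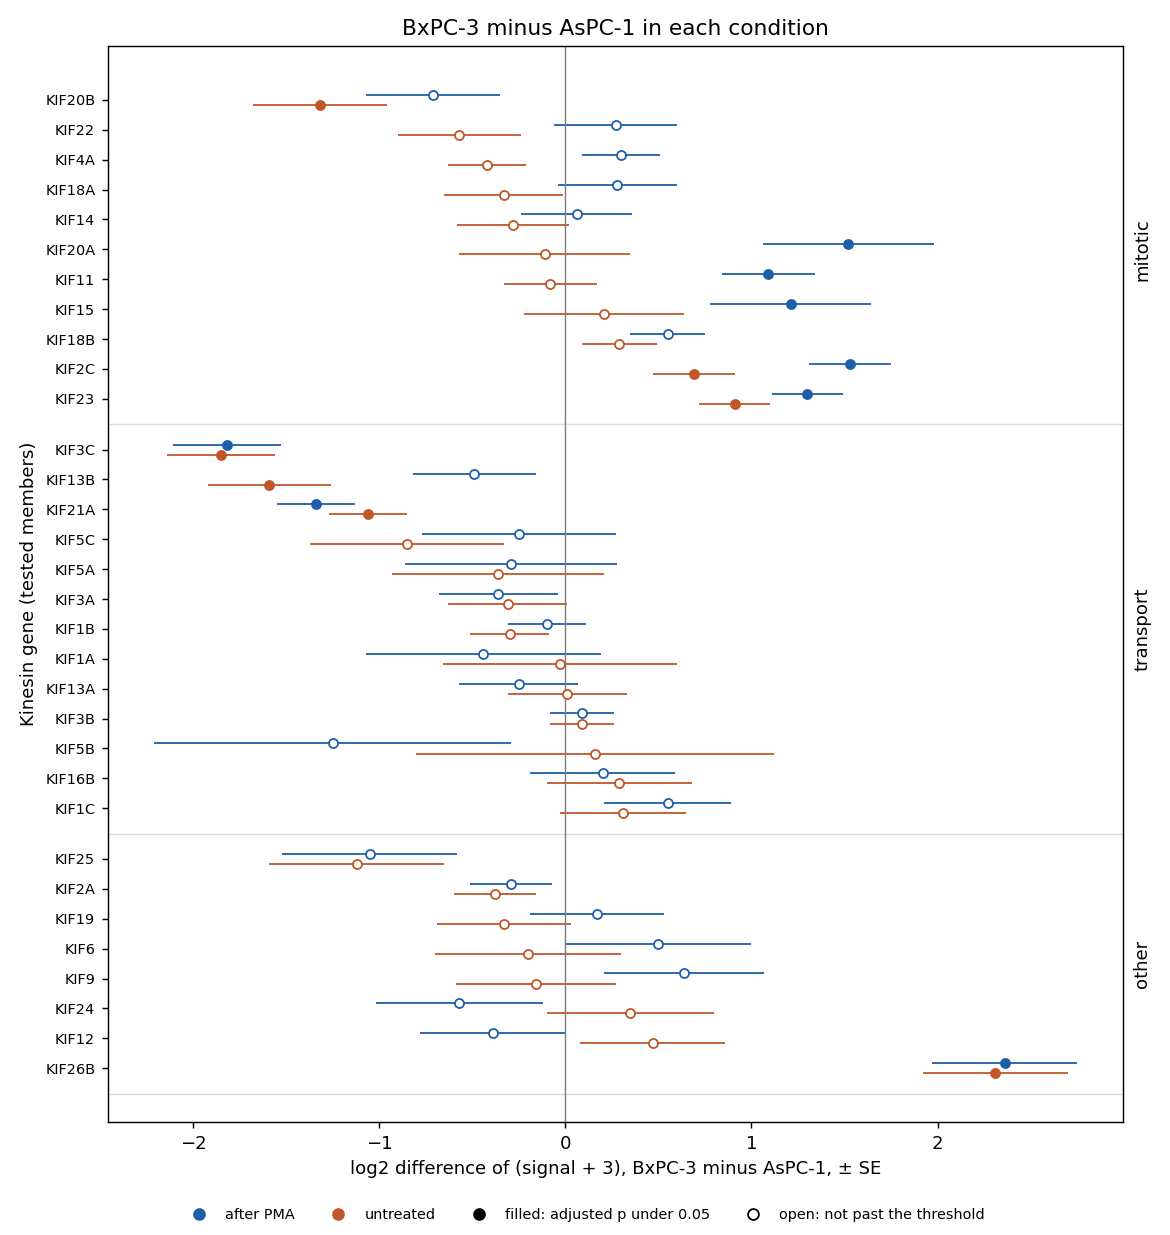
Difference of log2(signal + 3), BxPC-3 minus AsPC-1, with its standard error from the fit, for the 32 tested kinesins after PMA (blue) and untreated (orange), grouped by role. Filled points have an adjusted p under 0.05. KIF3C and KIF21A are filled left of 0 and KIF23, KIF2C and KIF26B right of 0 in both conditions, and KIF11, KIF15 and KIF20A are filled after PMA alone.

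Genes that work with kinesins were read from 3 lists, also chosen with earlier results of these data known. Of 19 partners of mitotic kinesins, such as Aurora kinases and the passenger complex, 3 were lower after PMA in BxPC-3 and 6 in AsPC-1, and none was higher. The medians of the 19 were -0.30 and -0.85 in the same order. Of all genes, 3.3% were lower in BxPC-3 and 0.721% in AsPC-1. HMMR, a spindle protein, was 1.90-fold lower in BxPC-3 (adjusted p 0.0126) and 2.69-fold lower in AsPC-1 (adjusted p 0.00268). TTK, a kinase of the spindle checkpoint, was 2.12-fold lower in BxPC-3 (adjusted p 0.00899) and 2.33-fold lower in AsPC-1 (adjusted p 0.0108). BUB1B, of the same checkpoint, passed in BxPC-3 (3.34-fold lower, adjusted p 0.0332), and AURKA, a kinase that matures spindle poles, in AsPC-1 (2.52-fold lower, adjusted p 0.0108). Of 16 kinesins under other symbols, light chains and cargo adaptors, 1 passed in BxPC-3 (5.82% of all genes) and 0 in AsPC-1 (1.96%). That gene was RHOT1, a mitochondrial adaptor of kinesin-1, at 2.04-fold lower (adjusted p 0.0301), and 3 of the 16 were lower and 0 higher at an unadjusted p under 0.05 in AsPC-1. Of 15 genes of S phase, 0 passed in either line, with medians of -0.22 in BxPC-3 and -0.55 in AsPC-1. At an unadjusted p under 0.05, 2 S phase genes were lower in BxPC-3, and 6 were lower and 1 higher in AsPC-1. Leaving out AsPC-1 PMA replicate 1, 5 S phase genes were lower and 1 higher in AsPC-1 at the adjusted threshold, beside 15 of the 19 mitotic partners lower. In that fit 13.5% of all genes were lower and 6.09% higher in AsPC-1.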

How the data were processed

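Kinesin transcripts were read from Affymetrix arrays of 12 samples in 4 groups of 3. What the authors deposited is an intensity per probe set and array, untransformed (54675 probe sets), computed by MAS5 per the submitters' processing notes; the version of MAS5 and the scaling settings are not given in the sources used here. No detection calls were used, so dim signals have no test against background, and the number of arrays limits the precision.

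Signals were turned into log2(signal + 3), where 3 is close to the arrays' 20th percentile of signal; fold changes on this scale understate the change of dim genes. No further normalization was applied, and 62 control probe sets were left out. Names came from the platform annotation: 41091 probe sets had 1 symbol, 1801 several and 11721 none; 41037 matched the RefSeq gene table by Entrez ID and 0 symbols changed. An s or x in a probe set's name marks one that may read related transcripts. The fit used limma 3.58.1 under R 4.3.3: a mean per group over all 12 arrays and 16099 genes, then contrasts and eBayes (trend, 8 residual degrees of freedom), two-sided, with Benjamini-Hochberg adjustment over all genes tested and a threshold of 0.05; each line's standard errors therefore draw on both lines. The p-values measure the spread between passages of 1 line each. The members and lists were chosen with earlier results of these data known.

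Named with full values are kinesins past the threshold in a PMA comparison and up to 5 each way per comparison of lines. KIF11, KIF20A, KIF23, KIF2C, KIF5B, KIF3B, KIF1B and KIF13A are named so whatever their result. Other names are given by role, range or count. KIF14, KIF9, KIF24, KIF2A and the dim KIF1A, KIF5A and KIF5C were singled out after their values were seen. From the lists of other genes, at most 3 past the threshold per list and PMA comparison are named. The numbers pair treated and untreated arrays through the passage in the labels: deviations of paired arrays from their group means correlated, across genes, at -0.0539, -0.126 and -0.0589 in BxPC-3 and at 0.411, 0.206 and 0.157 in AsPC-1. Alternatives were other scalings, pseudocounts, filters, probe set summaries, variance settings, array subsets, the passage block and a 2-fold minimum. In a simulation of the BxPC-3 PMA comparison over 16099 genes, 24.2% of genes changed 2-fold were called and 67.2% of those changed 4-fold, while false calls made up 4.19%. The simulated noise was independent between genes and arrays, with no passage effect, so these shares need not hold for the real arrays. Promoter sequences are RefSeq's for GRCh38.p14. Python 3.11.15 and matplotlib 3.10.9 made the figures.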

Additional observations from a re-analysis of the deposited data

How the results depend on the processing

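Counts of kinesins past the threshold moved most with the arrays that set the spread. After PMA in BxPC-3 the count of 1 became 2 under quantile normalization or median centring, and 3 with the mean of all probe sets. It became 6 with the replicate block, where 1645 of all 16099 genes passed, against 937 in the main fit. It was 16 on the arrays of the comparison alone (3535 of all genes). Without both AsPC-1 arrays of passage 8, an alternative chosen after seeing the data, it was 18 (3769 of all genes). Leaving out 1 array at a time gave 0 to 11, the highest without AsPC-1 PMA replicate 1 (14.9% of all genes). In AsPC-1 the count of 7 became 6 under quantile normalization (KIF23 lost) or without the filter on low values (KIF15 lost). It became 5 with the mean of all probe sets (KIF15 and KIF23 lost) and 4 by eBayes without trend. It was 0 on the arrays of the comparison alone (0.0% of all genes) and 10 with the block (5.62%). Without both arrays of passage 8 it was 15 (21.4% of all genes). Leaving out 1 array gave 1 to 15, the highest without PMA replicate 1 (19.5% of all genes). For the difference of the responses 0 became 1 with the replicate block (0.783% of all genes) and 8 without both arrays of passage 8 (7.37%). It was 0 to 4 on leaving out 1 array. Between lines, without both arrays of passage 8, 14 of 32 kinesins passed after PMA (47.3% of all genes) and 11 of 32 untreated (44.4%). With 32 members, these counts do not set the kinesins apart from all genes. On leaving out 1 array the counts lay at 6 to 12 and 5 to 8. The replicate block changed no call between lines. In the comparisons of lines it was a correlation between arrays of 1 passage, and in the PMA comparisons a fixed effect of passage. Of the 7 calls in AsPC-1, 6 were at least 2-fold. KIF5B turned negative in AsPC-1 under quantile normalization (-0.03) and without PMA replicate 2 (-0.55), PMA replicate 3 (-0.53) or untreated replicate 1 (-1.01), and stood at 1.41 without PMA replicate 1. Without AsPC-1 PMA replicate 1 the AsPC-1 response also changed sign for KIF13B (-0.24, against 0.02) and KIF3C (-0.10, against 0.26). That fit sets PMA passages 10 and 12 against untreated passages 8, 10 and 12. The untreated signal in passage 8 was 350 for KIF13B, against 168 and 144 in the later passages. For KIF5B it was 250, against 2470 and 2733. The mitotic median between untreated lines was 0.11 without AsPC-1 untreated replicate 1, against -0.11 over all arrays. Median centring moved the median of all genes by 0.1 after PMA in AsPC-1 and by -0.11 between lines after PMA. The cause of these shifts was not tested. Precision is limited by 3 arrays a group, by dim signals not set against background, and by probe sets that differ in sign: among the 19 kinesins with several measurable probe sets, signs were shared for 11 after PMA in BxPC-3 and for 13 in AsPC-1.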

Other observations

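KIF14 and KIF9 stood out by passage. KIF14, which works with citron kinase in cytokinesis, measured 167, 405 and 395 after PMA and 511, 408 and 391 without it in AsPC-1. Within passages its log2 difference was -1.60, -0.01 and 0.01, so the fall lay in passage 8 alone. KIF9, a kinesin of cilia and flagella, measured 94.5, 465 and 371 after PMA and 224, 283 and 300.0 without it in AsPC-1. Its log2 difference was -1.22 in passage 8 and 0.71 and 0.30 in passages 10 and 12, and 0.61, 0.50 and 1.09 in passages 7, 9 and 11 of BxPC-3. Without AsPC-1 PMA replicate 1, KIF9 was higher after PMA in BxPC-3 (0.73 ± 0.18, adjusted p 0.0159) and in AsPC-1 (0.63 ± 0.20, adjusted p 0.045), in limma's fit. Without both AsPC-1 arrays of passage 8 it did not pass in AsPC-1. The x in the name of its probe set marks one that can hit related transcripts. Over all arrays the 4 KIF9 probe sets ran from 0.22 to 0.96 in BxPC-3 and from -1.38 to -0.07 in AsPC-1. In passages 10 and 12 of AsPC-1 the next brightest probe set measured 120.0 and 114.5 after PMA and 126.4 and 129.9 without it. That probe set shows no rise in AsPC-1.

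Passage 8 of AsPC-1 held the highest untreated signal of its group for 11 of 11 mitotic kinesins, against 44.9% of all genes, and the highest PMA signal for 9 of 11, against 47.5% of all genes. Other kinesins under another symbol were CENPE, the centromere motor, at -0.76 ± 0.25 in BxPC-3 (adjusted p 0.0987) and -0.52 ± 0.25 in AsPC-1 (adjusted p 0.328), and KIFC1, a minus-end motor of the spindle, at -1.18 ± 0.72 (adjusted p 0.385) and -1.55 ± 0.72 (adjusted p 0.3) in the same order.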
